A study of Mus musculus with 24 samples.

Results

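The genes of sterol and fatty acid synthesis were followed in bone marrow-derived macrophages of WT and STAT6-deficient mice. Of 32 listed genes, 31 had at least 1 probe set with a single gene symbol, out of 18193 such genes on the array. Of these, 20 belonged to a sterol branch and 11 to a fatty acid branch, with 44 and 27 probe sets. Expression of Acat2 was not analysed here, although its promoter was. Each gene was represented by 1 probe set picked by its identifier, and its other probe sets were used to see whether they moved with it.

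Cells make cholesterol from acetyl-CoA through HMG-CoA, mevalonate, isoprenoid units, squalene and lanosterol. They make fatty acids from citrate-derived acetyl-CoA through malonyl-CoA and palmitate, which is then elongated and desaturated. Both branches are under SREBP transcription factors, held in the endoplasmic reticulum by SCAP and INSIG while sterols are plentiful. SREBP-2, the product of Srebf2, acts mainly on sterol genes, and SREBP-1c, a product of Srebf1 that is itself induced by LXR, acts mainly on fatty acid genes. Macrophages take up cholesterol with cell debris, and use unsaturated fatty acids for membranes and lipid mediators.

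The 24 arrays came from 6 C57Bl/6 mice, WT mice 1 to 3 and STAT6 KO mice 4 to 6, whose marrow was grown with M-CSF at 20 ng/ml over 10 days. Each mouse gave 4 cultures, which got IL-4 at 20 ng/ml or none, and rosiglitazone (RSG, an agonist of the nuclear receptor PPARγ) at 1 µM or its vehicle, DMSO with ethanol. There were thus 8 groups of 3 arrays: WT or KO, without IL-4 or with it, with vehicle or RSG. The KO is of the whole mouse, so every cell type in a KO dish lacked STAT6. STAT6 carries the IL-4 signal alongside another pathway, that of IRS-2. Groups of 3 are cultures of 3 mice, and all tests are two-sided limma tests over the 24 arrays. Values are log2 ratios of a probe set to its median over the arrays, so 0 is that gene's own middle level and levels of different genes cannot be set against each other.

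Promoters were looked at first, because members that move together may share motifs. RefSeq promoters (GRCm38.p6, 250 bases before to 50 after a start) were found for 17 sterol genes, Acat2 among them, in 20 windows, and 8 fatty acid genes, in 11 windows. Sqle, Fdft1, Fdps, Stard4, Scd1, Scd2 and Fads1 were not matched. CCAAT, the NF-Y motif, lay in 80.0% of sterol windows and 54.5% of fatty acid windows, against 37.4% of all 32851 windows. GGGCGG, the Sp1 motif, was in 85.0% and 45.5%, against 35.7%. NF-Y and Sp1 are known partners of SREBP. A strict sterol regulatory element, spelled TCAC, any base, then CCAC, was in 1 sterol window, that of Hmgcs1, or 5.0%, against 1.24% of all windows. The E-box CACGTG was in 20.0% of sterol and 9.09% of fatty acid windows, against 7.15%. The STAT6 motif, TTC and GAA with 4 bases of any kind between them, was in 0 of 20 sterol windows and in 1 of 11 fatty acid windows, one of Srebf1, against 6.95% of all. The PPAR motif DR1 was in no member window and in 0.0396% of all. All motifs were searched on both strands, and a match is a description of letters, not a bound site.

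The 250 bases before the start are shown for 5 members whose values stand out in what follows. They are Hmgcs1, which holds the sterol element, Idi1 and Insig1, which were lower with IL-4 in WT, and Dhcr7 and Srebf1, whose IL-4 changes had opposite signs in WT and KO. Dhcr7 and Srebf1 have 3 windows each, and the one with most matches to all searched motifs in these 250 bases is given. A tie would go to the lowest start. The Srebf1 window given holds a CCAAT, while another holds the STAT6 motif. Capitals mark matches to the sterol element and the NF-Y, Sp1 and E-box motifs on either strand. The positions are chr13:119690101-119690350 (plus strand) for Hmgcs1, chr13:8885356-8885605 (plus strand) for Idi1, chr5:28071162-28071411 (plus strand) for Insig1, chr7:143829964-143830213 (plus strand) for Dhcr7 and chr11:60210472-60210721 (minus strand) for Srebf1.
Hmgcs1: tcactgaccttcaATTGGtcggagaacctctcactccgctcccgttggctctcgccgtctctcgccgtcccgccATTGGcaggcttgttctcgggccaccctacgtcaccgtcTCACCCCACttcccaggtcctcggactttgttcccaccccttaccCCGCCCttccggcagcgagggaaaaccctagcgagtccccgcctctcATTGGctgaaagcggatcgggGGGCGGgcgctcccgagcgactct
Idi1: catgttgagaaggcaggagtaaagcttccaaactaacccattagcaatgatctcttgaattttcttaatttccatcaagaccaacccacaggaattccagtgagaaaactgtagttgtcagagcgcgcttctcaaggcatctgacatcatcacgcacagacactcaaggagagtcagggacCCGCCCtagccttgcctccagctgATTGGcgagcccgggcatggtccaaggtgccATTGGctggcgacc
Insig1: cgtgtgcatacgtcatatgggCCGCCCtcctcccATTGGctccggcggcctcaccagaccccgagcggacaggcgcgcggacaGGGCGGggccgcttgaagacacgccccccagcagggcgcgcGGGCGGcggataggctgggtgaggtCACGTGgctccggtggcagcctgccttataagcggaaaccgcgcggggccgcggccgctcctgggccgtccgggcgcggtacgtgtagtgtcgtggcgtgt
Dhcr7: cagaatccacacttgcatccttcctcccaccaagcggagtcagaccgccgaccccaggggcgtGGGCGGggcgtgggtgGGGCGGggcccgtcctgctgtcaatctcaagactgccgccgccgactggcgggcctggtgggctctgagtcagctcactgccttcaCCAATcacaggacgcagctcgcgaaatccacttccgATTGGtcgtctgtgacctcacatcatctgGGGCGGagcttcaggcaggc
Srebf1: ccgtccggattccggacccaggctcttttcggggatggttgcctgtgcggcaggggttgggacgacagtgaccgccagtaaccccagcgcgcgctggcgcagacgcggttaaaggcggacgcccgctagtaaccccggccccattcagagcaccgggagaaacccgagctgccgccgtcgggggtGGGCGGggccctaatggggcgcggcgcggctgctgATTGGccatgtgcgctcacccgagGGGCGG
In the stretches shown Hmgcs1 holds 3 CCAAT matches besides its sterol element, Idi1 and Dhcr7 hold 2 each, and Insig1 and Srebf1 hold 1 each. Of the stretches shown, that of Insig1 holds an E-box, and so does another Dhcr7 window.

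Stat6, on 1 of its probe sets, was 0.73 to 1.15 on the 12 WT arrays and -2.03 to -1.56 on the 12 KO arrays, so the genotypes matched their labels. Some arrays stood apart in genes of other cells. The median over 16 stromal fibroblast markers was 4.61 on the KO RSG array without IL-4 of mouse 6, 2.45 on the WT vehicle array without IL-4 of mouse 2, and at most 1.47 elsewhere. The array of mouse 6 also had the highest fatty acid branch median of all 24, 1.11, and a sterol branch median of 0.62. The WT vehicle array without IL-4 of mouse 1 had the highest sterol branch median, 0.68. In KO cultures IL-4 raised 8 of 10 neutrophil, 8 of 10 mast cell, 7 of 9 lymphocyte and 12 of 19 proliferation genes, against 964 of all 18193 genes called higher, so these KO arrays carried transcripts of other cell types. Over the KO vehicle arrays the neutrophil median was -0.024 to 0.36 without IL-4 and 3.39 to 3.66 with it. In WT cultures IL-4 lowered 7 of 10 neutrophil and 13 of 19 proliferation genes and raised 6 of 10 osteoclast genes. Of all 18193 genes, 1178 were called lower and 1444 higher there. For mast cell markers the KO medians were -1.55 to -0.77 and 4.46 to 4.92. The median of 11 macrophage genes lay between -0.36 and 0.17 on all arrays, although 2 of the 11 were called higher and 3 lower with IL-4 in each genotype. In such bulk samples fewer cells of a type and less RNA per cell cannot be told apart, and the part of these cells in the results below was not tested.

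**Figure D1:**
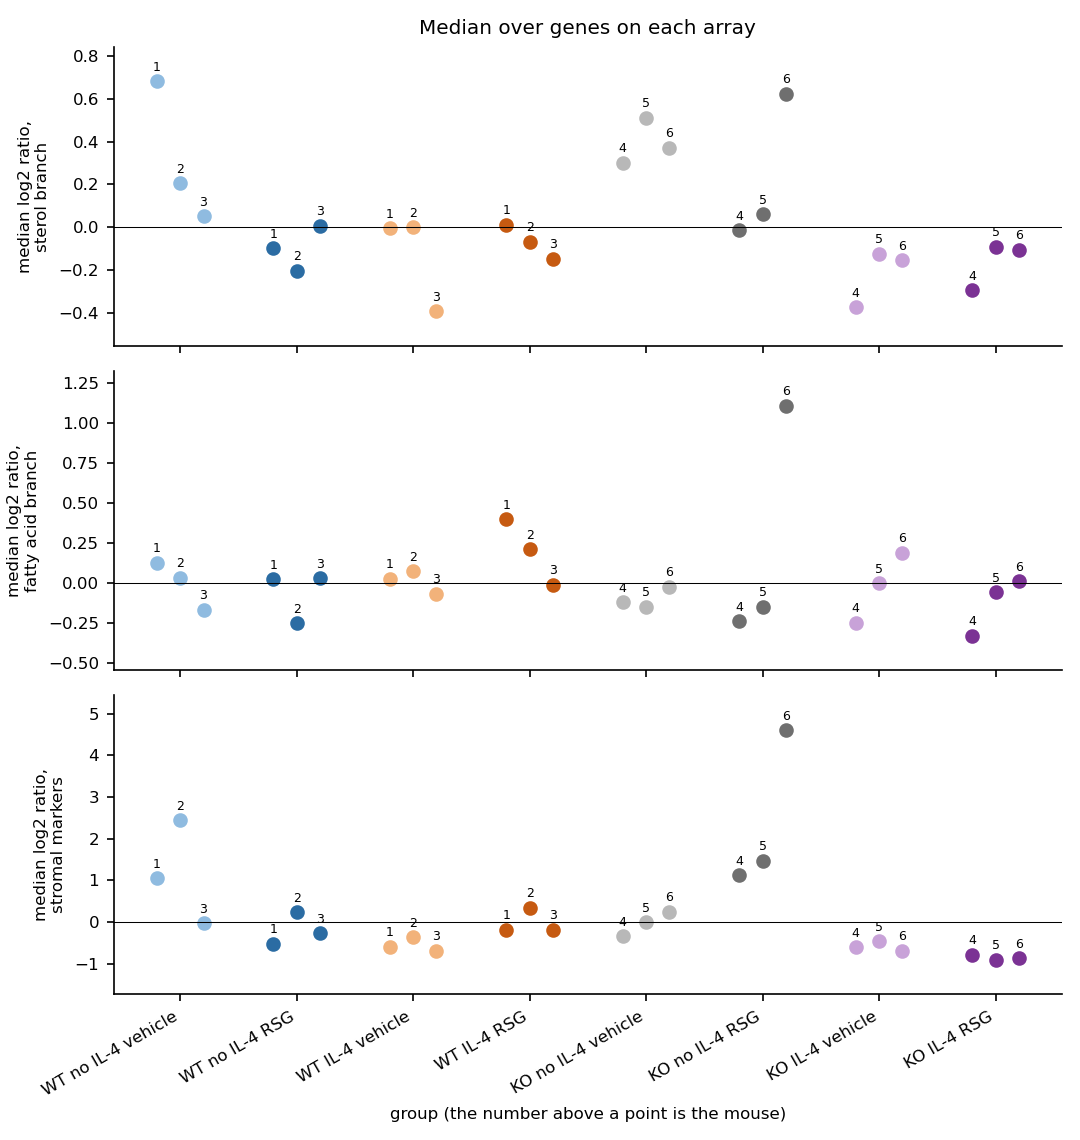
Median log2 ratio over the 20 sterol genes, the 11 fatty acid genes and the 16 stromal markers (y axes) on each of 3 arrays of the 8 groups (x axis); the number above a point is the mouse. Mouse 1 of the first group has the highest sterol median, 0.68, and mouse 6 of the KO RSG group without IL-4 the highest fatty acid and stromal medians, 1.11 and 4.61.

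The first comparison asked how IL-4, which drives alternative activation, changed both branches in WT macrophages with vehicle. In the sterol branch 10 of 20 genes fell and 1 rose, while in the fatty acid branch 2 of 11 fell and 1 rose. A gene was called where the adjusted p was under 0.05 and the change at least 1.5-fold, and 14.4% of all genes were called. Of the 14 member calls the methods' t-test kept 1, that of Scd2, and it kept no sterol call. The median log2 change was -0.64 over the sterol branch and -0.22 over the fatty acid branch, against 0.11 over all genes. The sterol genes that fell were Idi1, Cyp51, Fdps, Msmo1, Tm7sf2, Mvd, Pmvk, Insig1, Stard4 and Srebf2. The fall in the sterol branch leaned on 1 control array: without that of mouse 1 the sterol median was -0.38, with 4 genes lower. The fatty acid median was -0.081 without that array and 0.12 without all arrays of mouse 1, so its direction rested on 1 mouse. Idi1, Tm7sf2, Pmvk and Srebf2 were still called lower without the control array of mouse 1 alone. Without all arrays of mouse 1, or as the mean of its probe sets, Srebf2 was not. The branches were set side by side by these counts and medians, with no test between them.

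Idi1, whose enzyme interconverts the isoprenoid units isopentenyl and dimethylallyl diphosphate, fell most. Without IL-4 its log2 ratios were 1.62, 0.33 and 0.061 on the WT vehicle arrays of mice 1, 2 and 3, and with IL-4 they were -1.96, -1.36 and -1.73. All 3 IL-4 arrays lay below all 3 controls, although the control of mouse 1 was far above the other two. The change was -2.36 ± 0.36 (SE), adjusted p = 9.44e-05, or 5.12-fold lower, and the second probe set gave -2.57 ± 0.30. Pmvk, the mevalonate pathway kinase that follows mevalonate kinase, was at 0.46, 0.0077 and 0.10 without IL-4 and at -0.59, -0.75 and -0.46 with it. Its groups did not overlap, and it changed by -0.79 ± 0.15 (SE), adjusted p = 7.59e-04.

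Stard4 encodes a carrier that moves sterol between membranes. Its ratios were 0.59, 0.023 and -0.14 without and -0.69, -1.34 and -0.70 with IL-4, again without overlap. It fell by 1.06 ± 0.29 on the log2 scale, adjusted p = 0.0146, and its other probe sets gave -1.49 and -1.61. Tm7sf2, a sterol C14 reductase, was at 0.27, 0.49 and 0.35 and then at -0.063, -0.49 and -0.34, a change of -0.67 ± 0.15 (SE), adjusted p = 0.00415. Its groups were close but did not overlap. The other sterol calls were Fdps, farnesyl diphosphate synthase, at -1.22, Cyp51, the lanosterol demethylase, at -1.002, and Srebf2 at -0.89. Insig1, which retains the SCAP-SREBP complex and is itself a target of SREBP, changed by -0.86. Mvd, mevalonate diphosphate decarboxylase, and Msmo1, a C4 methyl sterol oxidase, changed by -0.77 and -0.60. The second probe set of Srebf2 moved less, with group means of 0.070 without IL-4 and -0.17 with it. That of Mvd also moved less, from 0.41 to 0.17, and was not called. Without the control array of mouse 1, Cyp51, Fdps, Msmo1, Mvd, Insig1 and Stard4 were no longer called.

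Dhcr7 went the other way. It encodes 7-dehydrocholesterol reductase, the last enzyme of one route to cholesterol. Its ratios were 0.73, 0.011 and -0.11 without IL-4 and 1.04, 1.73 and 1.11 with it, so all IL-4 arrays were above all controls. It rose by 1.09 ± 0.24 (SE), adjusted p = 0.00316, and no other sterol gene was called higher. Hmgcs1, HMG-CoA synthase at the head of the pathway, gave 0.10 ± 0.20 and was not called. Sqle (squalene epoxidase, -0.37), Hsd17b7 (-0.58), Nsdhl (0.26), Ebp (0.24) and Mvk (mevalonate kinase, -0.13) were not called either.

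For Fdft1, Lss and Sc5d the representing probe set scattered among arrays and was not called, while other probe sets of the same gene were. Fdft1, squalene synthase, gave -0.73 ± 0.87 on the representing probe set, but -1.10 and -1.01, both called, on others, and 1.55, not called, on another. Lss, lanosterol synthase, gave 0.45 ± 0.67 and, on a called probe set, -0.66. Sc5d, sterol C5 desaturase, gave -0.013 ± 0.43, with called values of -1.17 and -0.71 on both others. Counted over probe sets, 20 of 44 sterol probe sets were called lower and 1 higher.

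In the fatty acid branch the desaturase gene Scd2 rose, which makes oleate and palmitoleate from saturated acids. It was at -0.20, -0.16 and -0.42 without IL-4 and at 2.71, 2.31 and 2.33 with it, with a wide gap between the groups. The change was 2.71 ± 0.41 (SE), adjusted p = 9.40e-05, or 6.53-fold higher, and 3 of 3 probe sets were called. Its neighbour in function, Scd1, was at -0.89, -0.60 and -0.81 and 1.11, 0.59 and 0.034. These groups did not overlap either, but the change of 1.34 ± 0.71 (SE), adjusted p = 0.236, did not pass, while its second probe set did, at 1.73 ± 0.47 (SE), adjusted p = 0.0146. The fit takes its spread from all arrays, and without the KO RSG array of mouse 6, on which Scd1 was far above its group, the same change had an adjusted p of 0.00562.

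Fads1, the delta-5 desaturase of polyunsaturated acids, fell. Its ratios were 0.79, 0.43 and 0.72 without and -0.31, -0.86 and -0.14 with IL-4, a change of -1.08 ± 0.21 (SE), adjusted p = 0.00127. Fasn, fatty acid synthase, changed by -0.88 ± 0.28 (SE), adjusted p = 0.0329, and was not called without the control array of mouse 1. Srebf1 was at 0.13, 0.033 and -0.12 and 0.41, 0.47 and 0.49, higher on every IL-4 array, by 0.44 ± 0.11 (SE), adjusted p = 0.00534, short of 1.5-fold. Elovl5, an elongase of polyunsaturated acids, went from 0.075, 0.074 and -0.21 to 0.53, 0.39 and 0.48, a change of 0.48 ± 0.12 (SE), adjusted p = 0.00588, also short of 1.5-fold. Acly, the ATP citrate lyase that supplies acetyl-CoA, went from 0.20, 0.064 and 0.14 to 0.57, 0.40 and 0.57, a change of 0.38 ± 0.12 (SE), adjusted p = 0.0376, with the same limit. Acaca (acetyl-CoA carboxylase, -0.22), Me1 (malic enzyme, a source of NADPH, -0.40), Elovl6 (-0.45) and Fads2 (-0.56) were not called.

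**Figure D2:**
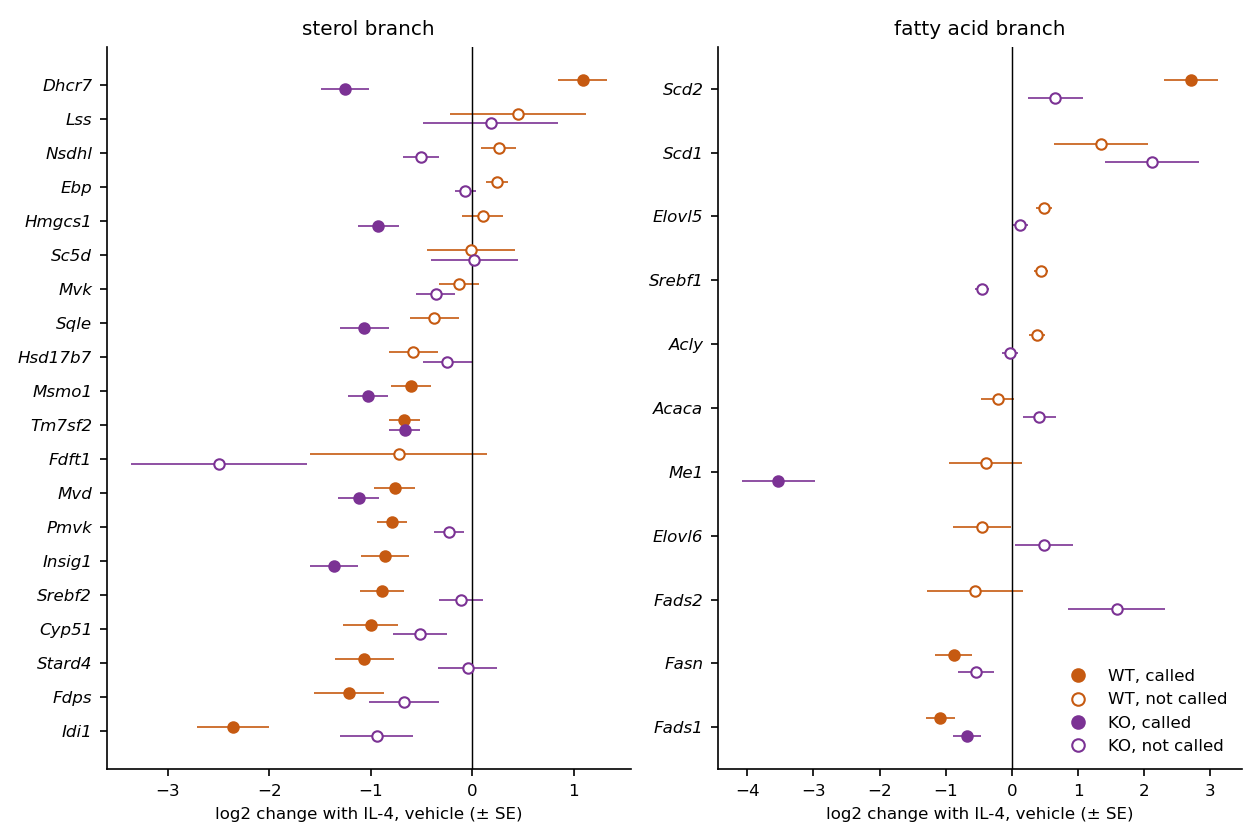
Log2 change with IL-4 in vehicle cultures (x axis, ± SE from the fit over 24 arrays) of each sterol gene (left) and fatty acid gene (right) in WT and KO, by the probe set that represents the gene; filled points were called. Most sterol genes lie left of 0 in both genotypes, Dhcr7 lies on opposite sides (1.09 and -1.26), and Scd2 and Me1 have the widest values on the right, 2.71 in WT and -3.53 in KO.

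The same IL-4 comparison in WT was made with RSG in both arms. Here 2 sterol genes rose, Dhcr7 and Nsdhl, and 0 fell, while 4 fatty acid genes rose and 1 fell, with 14.6% of all genes called. Counted over probe sets, 5 of 44 sterol probe sets were called higher and 3 lower, against 3598 and 2573 of all 45037. The count of 0 sterol genes lower thus held only for the representing probe sets. The medians were -0.077 and 0.47, against 0.11 over all genes. Scd1 went from -1.31, -1.09 and -0.33 to 3.24, 2.88 and 2.64, a change of 3.83 ± 0.71 (SE), adjusted p = 6.72e-04, a 14.2-fold rise. Scd2 went from -0.20, -0.14 and -0.39 to 3.48, 3.45 and 3.48, a change of 3.71 ± 0.41 (SE), adjusted p = 2.74e-06, 13.1-fold. The arrays of both genes fell into separate groups. Dhcr7 went from -0.091, -0.43 and -0.14 to 1.86, 2.12 and 1.71, a change of 2.12 ± 0.24 (SE), adjusted p = 3.64e-06, also without overlap. Acly rose by 0.83 ± 0.12 and Elovl5 by 0.64 ± 0.12, and Fads1 fell by 1.26 ± 0.21 on the log2 scale. Nsdhl, a sterol C4 decarboxylating dehydrogenase, rose by 0.62 ± 0.18. Idi1 was at -0.26, -0.71 and 0.013 and then at -0.995, -1.01 and -1.02, a change of -0.69 ± 0.36 (SE), adjusted p = 0.218, not called. The second Idi1 probe set had group means of 0.077 without IL-4 and -0.85 with it.

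RSG alone called no member, and its effect was asked in WT and KO, each with and without IL-4. In WT without IL-4, 0.181% of all genes were called and 0 of 31 members, while 10 members had an unadjusted p under 0.05 in the limma fit, against 8.46% of genes. The methods' t-test called 0 as well. Sterol genes were the larger part, 8 of 20, and 17 of 20 were lower with RSG, at a median of -0.38 against -0.058 for all genes. This median was -0.23 without the control array of mouse 1. Sterol medians by array were 0.68, 0.21 and 0.053 with vehicle and -0.10, -0.20 and 0.0078 with RSG. The groups did not overlap.

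In WT with IL-4, 0.846% of genes were called and again 0 members, with 5 members at an unadjusted p under 0.05 against 9.24% of genes, and 0 by the methods' t-test. Scd1 was at 1.11, 0.59 and 0.034 with vehicle and 3.24, 2.88 and 2.64 with RSG, with every RSG array higher, and the change was 2.34 ± 0.71 (SE), adjusted p = 0.194. Scd2 was at 2.71, 2.31 and 2.33 and 3.48, 3.45 and 3.48, likewise apart, at 1.02 ± 0.41 (SE), adjusted p = 0.429. Both changes were called once the KO RSG array without IL-4 of mouse 6 was left out, at adjusted p = 9.95e-04 for Scd1 and 0.00183 for Scd2. On that array Scd1 was 3.33 and Scd2 2.15, next to a stromal median of 4.61. Dhcr7 gave 0.60 ± 0.24 (SE), adjusted p = 0.418, and was not called with or without that array.

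The difference between both RSG effects in WT was tested directly. It called 0 members and 0.0055% of genes, 1 gene in all, and 13 members had an unadjusted p under 0.05 against 6.44% of genes. Of these, 9 were sterol genes. The median difference was 0.57 for the sterol branch and 0.45 for the fatty acid branch, against 0.03 for all genes. Idi1 differed by 1.67 ± 0.51 (SE), adjusted p = 0.488.

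In KO, RSG called 0 members without IL-4, where 0.242% of genes were called, and 0 with IL-4, where the share was 0.759%. At an unadjusted p under 0.05 there were 4 members, against 9.18% of genes, and 3, against 9.2%. The methods' t-test called 0 in both. Without IL-4 the RSG arrays of mice 4 and 5 had sterol medians of -0.012 and 0.061 and that of mouse 6 0.62, against 0.30 to 0.51 with vehicle. Without the array of mouse 6 the sterol median change went from -0.10 to -0.35.

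**Figure D3:**
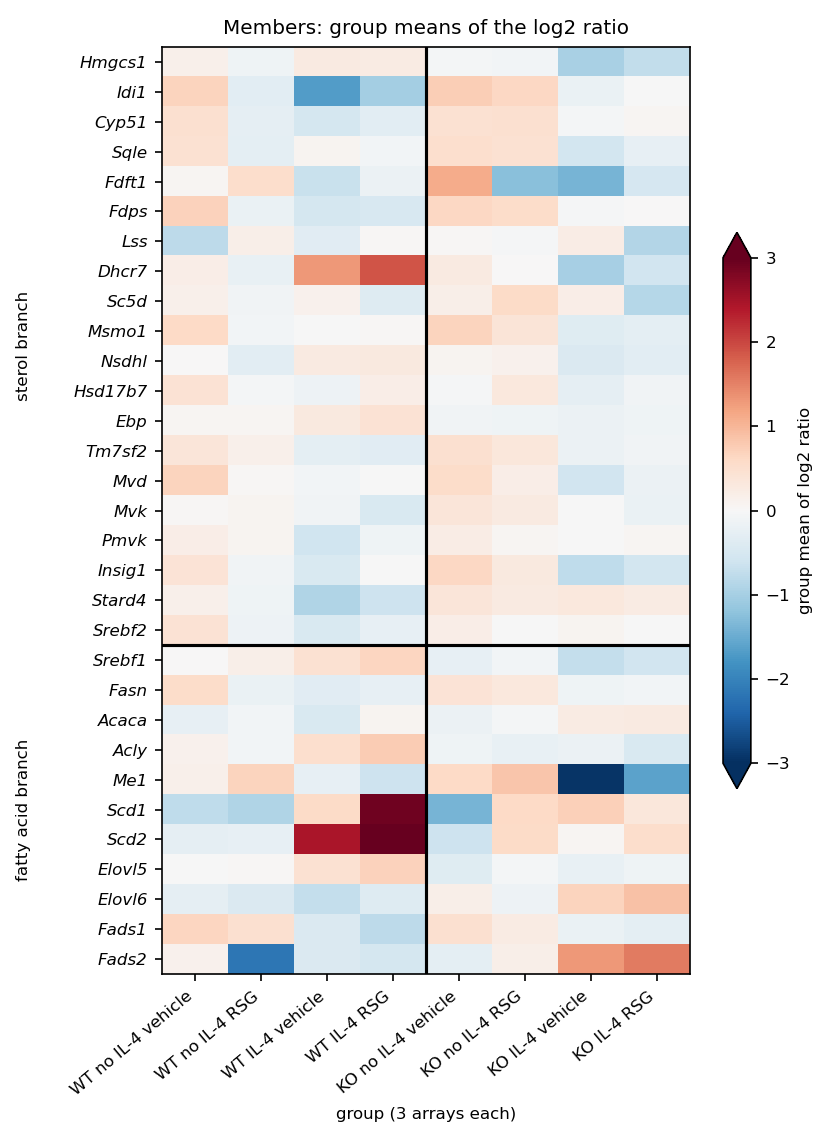
Group mean of the log2 ratio (colour, cut at 3 in both directions) of each of 31 members (rows, sterol branch above the line and fatty acid branch below) in the 8 groups of 3 arrays (columns). Scd1 and Scd2 are darkest in WT with IL-4 and RSG, at 2.92 and 3.47, and Me1 is darkest on the low side in KO with IL-4, at -2.94.

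IL-4 was then compared in KO with vehicle, where STAT6 is absent. Of 20 sterol genes 7 fell and 0 rose, and of 11 fatty acid genes 2 fell and 0 rose, with 13.7% of all genes called. Without the KO RSG array of mouse 6, which is in neither group, 2 fatty acid genes were called higher as well, Scd1 and Scd2. The medians were -0.59 and 0.13, against -0.16 over all genes. Of all genes called, 38.7% were higher, against 49.1% after quantile normalization and 55.8% with each array centred on its median. The genes that fell were Hmgcs1, Sqle, Dhcr7, Msmo1, Tm7sf2, Mvd, Insig1, Me1 and Fads1. Msmo1, Tm7sf2, Mvd, Insig1 and Fads1 were also among the 12 that fell in WT, which is 41.7% of the WT list and 55.6% of the KO list. The lists share no array, but both rest on 1 estimate of spread over the 24 arrays. The share of all genes lower in both genotypes was not counted. In WT, Msmo1, Mvd and Insig1 were no longer called without the control array of mouse 1. In KO, Tm7sf2 was no longer called with each array centred on its median, nor Fads1 with that or quantile normalization. Msmo1, Mvd and Insig1 kept the KO call under both scalings. The falls in KO came with the rise of neutrophil, mast cell, lymphocyte and proliferation genes given above, and their part was not tested.

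Me1 fell most. It was at 0.40, 0.62 and 0.74 on the KO vehicle arrays without IL-4 and at -2.82, -3.06 and -2.95 with it, a change of -3.53 ± 0.55 (SE), adjusted p = 1.98e-04, or 11.6-fold lower. Its second probe set gave -0.99 ± 0.26. Dhcr7 was at 0.017, 0.50 and 0.27 and -1.03, -1.07 and -0.89, a change of -1.26 ± 0.24 (SE), adjusted p = 0.00119. Hmgcs1 was at -0.33, 0.16 and 0.02 and -1.20, -0.85 and -0.87, a change of -0.92 ± 0.20 (SE), adjusted p = 0.00351, and 5 of 5 probe sets were called lower. None of these 3 genes had overlapping groups. Insig1 fell by 1.36 ± 0.24, Mvd by 1.12 ± 0.20, Sqle by 1.06 ± 0.24 and Msmo1 by 1.03 ± 0.20 on the log2 scale. Scd1 gave 2.12 ± 0.71 (SE), adjusted p = 0.0509, just short of the threshold, and its second probe set gave -0.32. Without the KO RSG array of mouse 6 the same changes of Scd1 and of Scd2, 0.66, were called in KO, at adjusted p = 1.59e-04 and 0.00464. Idi1 was at 0.52, 0.86 and 0.84 and -0.42, -0.18 and -0.013, a change of -0.94 ± 0.36 (SE), adjusted p = 0.0859, and its second probe set was called at -1.02.

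With RSG in both arms, IL-4 in KO called 4 sterol genes and 1 fatty acid gene lower and 0 higher, and 8.02% of all genes. They were Hmgcs1 at -0.67, Msmo1 at -0.70, Insig1 at -0.85, Sc5d at -1.43 and Me1 at -2.45. The control group of this comparison holds the array of mouse 6. Without it 0 sterol genes were called, and Scd2 (0.76) and Elovl6 (1.67) were called higher, so this count rests on 1 array.

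Without IL-4 no member passed between the genotypes. KO against WT called 0 of 31 with vehicle, where 0.165% of all genes were called, and 0 with RSG, where it was 0.0989%. At an unadjusted p under 0.05 there were 3 members, against 9.5% of genes, and 9, against 10.3%. The methods' t-test called 0 in both.

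With IL-4 and vehicle, KO arrays differed from WT arrays in 13 of 31 members, while 26.2% of all genes were called. In the sterol branch 3 genes were higher and 3 lower in KO, and in the fatty acid branch 2 higher and 5 lower. The medians were -0.029 and 0.14, against -0.29 over all genes. Centring each array on its own median moved them to 0.19 and 0.36, and moved the median of all genes to -0.078. The fatty acid median of 0.14 was the value of Scd1 on its representing probe set. The second probe set of Scd1 went the other way, with group means of 1.27 in WT and -0.61 in KO. Of all genes called, 27.4% were higher, against 42.6% after quantile normalization and 44.4% with each array centred on its median. Lower in KO were Hmgcs1, Dhcr7, Nsdhl, Srebf1, Acly, Me1, Scd2 and Elovl5, and higher were Idi1, Pmvk, Stard4, Acaca and Elovl6.

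Dhcr7 was -2.29 ± 0.24 (SE), adjusted p = 6.91e-07, or 4.89-fold lower in KO, from 1.04, 1.73 and 1.11 in WT to -1.03, -1.07 and -0.89 in KO. Srebf1 went from 0.41, 0.47 and 0.49 to -0.64, -0.73 and -0.74, a difference of -1.16 ± 0.11 (SE), adjusted p = 1.12e-07, the smallest adjusted p of all members here. Scd2 went from 2.71, 2.31 and 2.33 to -0.13, -0.0015 and 0.28, a difference of -2.40 ± 0.41 (SE), adjusted p = 1.52e-04. In these 3 genes every KO array was below every WT array. Hmgcs1 went from 0.12, 0.44 and 0.24 to -1.20, -0.85 and -0.87, a difference of -1.24 ± 0.20 (SE), adjusted p = 9.72e-05. Me1 went from 0.028, -0.70 and -0.067 to -2.82, -3.06 and -2.95, a difference of -2.70 ± 0.55 (SE), adjusted p = 8.32e-04. These groups were apart as well. Acly (-0.68 ± 0.12), Elovl5 (-0.69 ± 0.12) and Nsdhl (-0.69 ± 0.18) were lower by less, and under 1.5-fold once arrays were centred on their medians. On the high side, Idi1 went from -1.96, -1.36 and -1.73 to -0.42, -0.18 and -0.013, a difference of 1.48 ± 0.36 (SE), adjusted p = 0.00332. Stard4 went from -0.69, -1.34 and -0.70 to 0.06, 0.23 and 0.68, a difference of 1.23 ± 0.29 (SE), adjusted p = 0.00279. Pmvk was 0.59 ± 0.15, Elovl6, which elongates palmitate to stearate, 1.37 ± 0.44, and Acaca 0.70 ± 0.25. Acaca was not called on its second probe set, at -0.12. Insig1, Mvd, Msmo1, Cyp51, Fdps, Sqle, Fads1 and Fasn did not pass in this comparison.

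With IL-4 and RSG, 2 sterol genes were higher and 3 lower in KO, and 2 fatty acid genes higher and 5 lower, with 22% of all genes called. The medians were -0.23 and -0.82, against -0.23 over all genes. Of all genes called, 29.3% were higher, against 41.7% after quantile normalization and 44.4% with each array centred on its median. Scd2 went from 3.48, 3.45 and 3.48 in WT to 0.42, 0.56 and 0.61 in KO, a difference of -2.94 ± 0.41 (SE), adjusted p = 2.57e-05. Scd1 went from 3.24, 2.88 and 2.64 to -0.035, 0.66 and 0.39, a difference of -2.58 ± 0.71 (SE), adjusted p = 0.0105. Acly went from 0.67, 0.69 and 0.92 to -0.39, -0.47 and -0.53, a difference of -1.22 ± 0.12 (SE), adjusted p = 6.29e-07. In all 3 the genotypes were apart. Dhcr7 differed by -2.47 ± 0.24, Srebf1 by -1.24 ± 0.11, Hmgcs1 by -0.995 ± 0.20, Elovl5 by -0.82 ± 0.12 and Nsdhl by -0.61 ± 0.18. Idi1 (1.01 ± 0.36), Stard4 (0.88 ± 0.29), Elovl6 (1.26 ± 0.44) and Fads2, the delta-6 desaturase (2.10 ± 0.73), were higher. Of 19 alternatives, Idi1 and Elovl6 lost the call in 8, Stard4 in 7, Nsdhl in 6 and Fads2 in 6 with 1 reversal. Dhcr7, Srebf1, Hmgcs1 and Scd2 lost it in 0. On the probe set with the largest SD, Idi1, Stard4 and Elovl6 were not called. Fads2 ran from -4.37 to 1.71 over the arrays, and its 3 probe sets gave 2.10, 1.502 and -0.40. Ebp, the sterol isomerase, was -0.57 ± 0.11 (SE), adjusted p = 5.11e-04, under 1.5-fold.

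Whether IL-4 acted differently in WT and KO was tested as the WT change minus the KO change, with vehicle. It was called for 6 of 31 members, all with the higher change in WT, and for 17% of all genes. Of all genes called, 67.9% were higher, against 48.4% after quantile normalization and 52.9% with each array centred on its median. The 6 members were Hmgcs1 (1.03 ± 0.29), Dhcr7 (2.34 ± 0.34), Nsdhl (0.77 ± 0.25), Srebf1 (0.90 ± 0.15), Me1 (3.13 ± 0.78) and Scd2 (2.05 ± 0.58). On its second probe set Me1 gave 0.82 ± 0.37 (SE), adjusted p = 0.156, not called. On its other probe sets Scd2 gave 2.16, called, and 0.28, not called. Nsdhl lost its call in 10 of 18 alternatives, quantile normalization and centring among them, Scd2 in 6, Hmgcs1 in 4, quantile normalization among them, Me1 in 1, and Dhcr7 and Srebf1 in 0. Without the KO RSG array of mouse 6, Idi1 (-1.41) and Stard4 (-1.02) were called in the other direction, and without both arrays high in stromal markers Idi1 and Pmvk were. Dhcr7 rose in WT and fell in KO. Srebf1 changed by 0.44 ± 0.11 in WT and by -0.46 ± 0.11 in KO, each under 1.5-fold. Dhcr7 had the lowest adjusted p of the 6, 9.14e-05. Scd1 was not called on its representing probe set, at -0.77 ± 1.01 (SE), adjusted p = 0.697. Its second probe set was called, at 2.06 ± 0.67 (SE), adjusted p = 0.0428. For Idi1 the difference was -1.41 ± 0.51 (SE), adjusted p = 0.0663, or 0.0436 without the KO RSG array of mouse 6, which passes, while its second probe set gave -1.55 ± 0.43 (SE), adjusted p = 0.017. The falls of Insig1 (0.50 ± 0.34), Mvd (0.36 ± 0.28), Msmo1 (0.43 ± 0.28), Tm7sf2 (-0.0052 ± 0.22) and Fads1 (-0.40 ± 0.30) were not shown to differ between the genotypes.

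**Figure D4:**
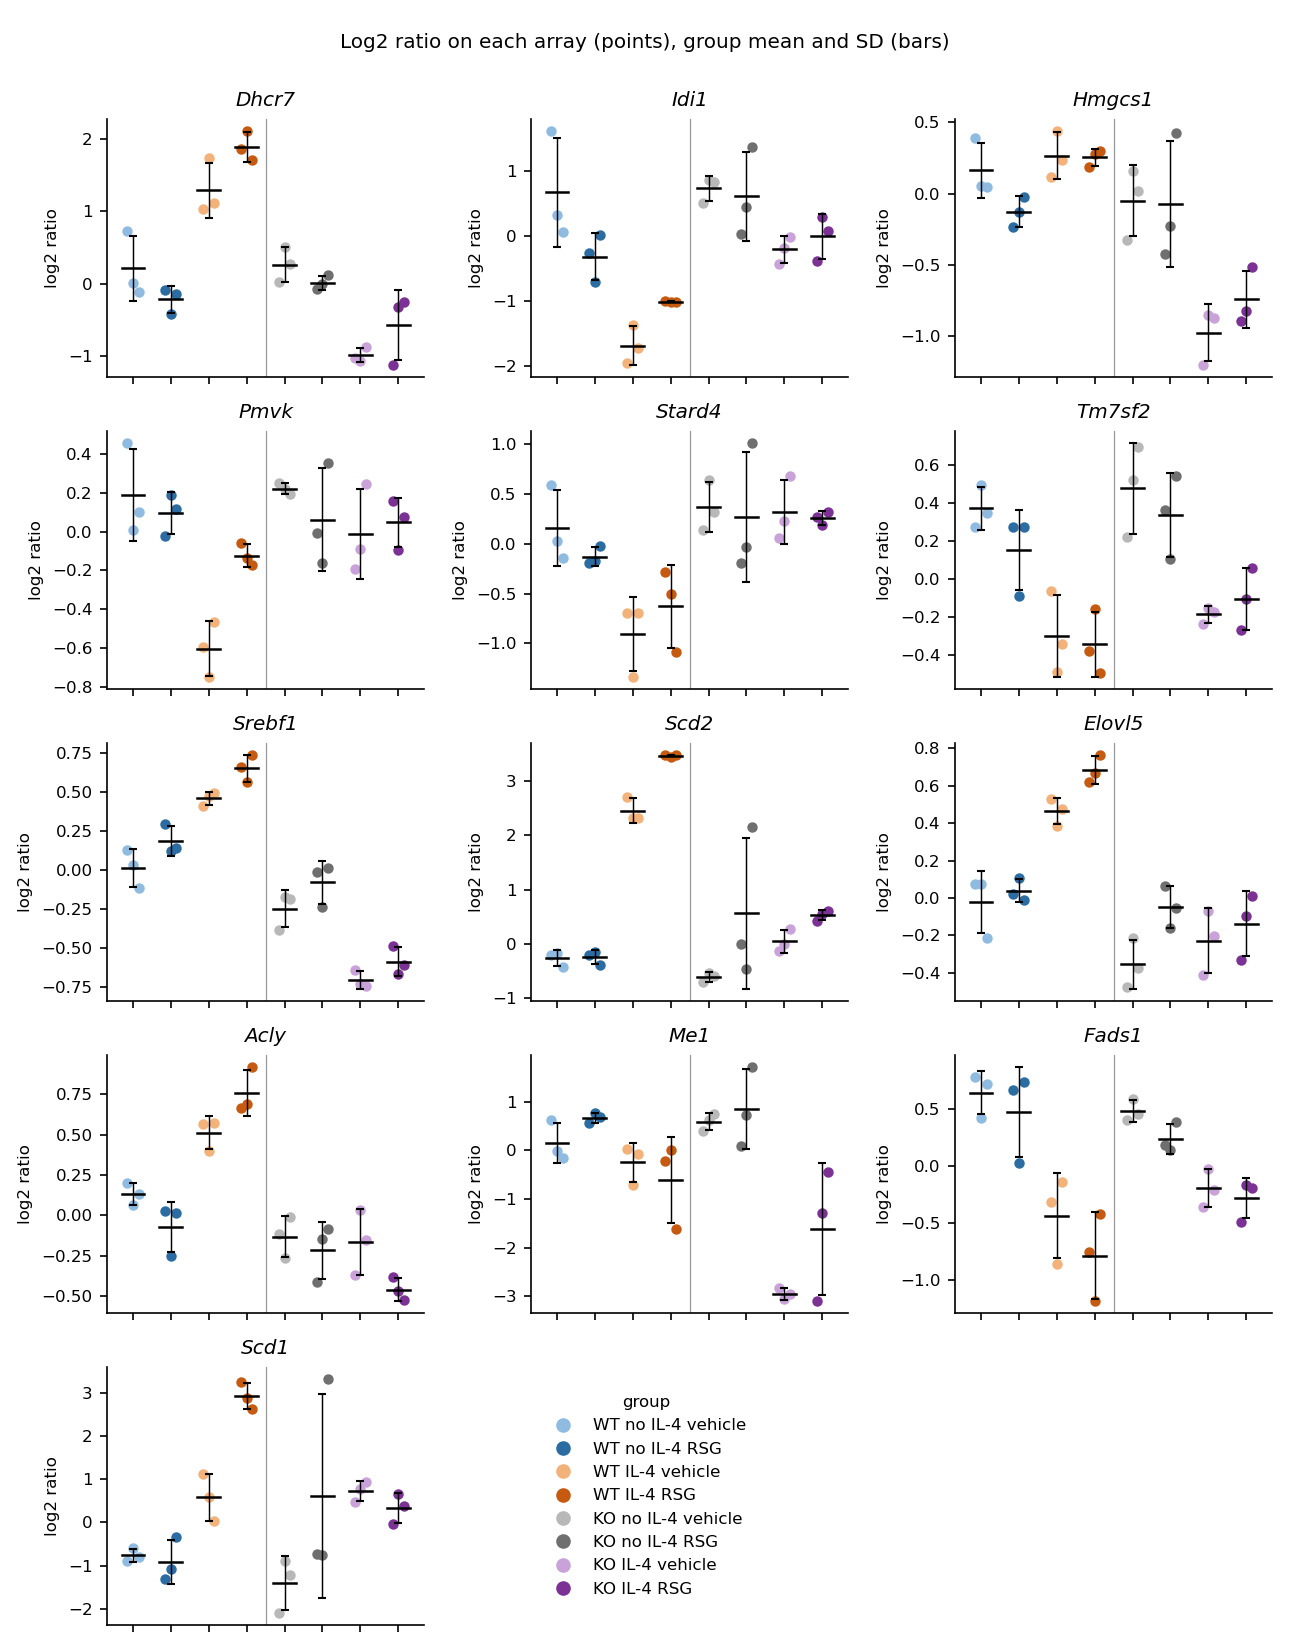
Log2 ratio (y axis of each panel, on its own scale) on each array (points, in the order of the mouse number) for 13 members in the 8 groups, with the group mean (long bar) and SD (short bars); WT groups are left of the grey line and KO groups right of it. Dhcr7, Scd2 and Srebf1 are highest in WT with IL-4, Idi1 is lowest there, and 1 KO point of Scd1 and Scd2 without IL-4 but with RSG, that of mouse 6, lies far above its group.

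Other genes of these pathways were taken from lists, and their counts stand against shares of all genes called of 14.4% with IL-4 in WT, 13.7% with IL-4 in KO, 0.846% with RSG in WT with IL-4 and 26.2% between KO and WT with IL-4. Of 9 SREBP processing genes, 1 rose with IL-4 in WT with vehicle, the ubiquitin ligase subunit gene Fbxw7 at 0.98 ± 0.10, and 0 fell, a share no higher than that of all genes. In KO 3 fell, namely the SREBP proteases Mbtps1 (-1.04 ± 0.20) and Mbtps2 (-0.96 ± 0.17) and Insig2 (-0.89 ± 0.16). KO with IL-4 was below WT in 6 of 9, led by Insig2 at -1.51 ± 0.16, adjusted p = 7.75e-07. Of 7 LXR and efflux genes, 4 rose in WT: Ch25h, a cholesterol hydroxylase, at 3.75 ± 0.49, the exporter Abcg1 at 1.83 ± 0.19, Nr1h3, which encodes LXRα, at 1.16 ± 0.22, and the exporter Abca1 at 0.97 ± 0.27. Cyp27a1, a sterol hydroxylase, fell at -0.92 ± 0.16. Abca1 and Cyp27a1 are named after their values were seen, to complete the count. In the RSG comparison in WT with IL-4, Lpcat3, a phospholipid remodelling enzyme, rose at 1.02 ± 0.15 and Ch25h fell at -2.82 ± 0.49. KO with IL-4 was below WT in 6 of 7, led by Ch25h at -4.47 ± 0.49.

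Of 21 further genes of fatty acid synthesis and NADPH supply, 2 rose and 1 fell with IL-4 in WT, a share close to that of all genes. Acss2, an acetyl-CoA synthetase, fell at -1.29 ± 0.24, and Hsd17b12, of the elongation cycle, and Tkt, transketolase, rose at 0.93 ± 0.14 and 0.93 ± 0.19. In KO with IL-4 against WT, 12 of 21 were lower and 1 higher, again Acss2, at 1.60 ± 0.24. Of all genes 3457 were lower here, and 1728 after quantile normalization. The lower ones were led by Acacb (-1.79 ± 0.51) and Lpin1 (-1.38 ± 0.25). Of 7 genes of sterol uptake and trafficking, 0 were called with IL-4 in WT, while in KO Npc1, the lysosomal cholesterol exporter, fell at -0.91 ± 0.14. Of 5 further sterol and isoprenoid genes, Lbr, a sterol C14 reductase of the nuclear envelope, fell with IL-4 in WT at -1.66 ± 0.15 and rose in KO at 1.10 ± 0.15. Lbr does in the pathway what Tm7sf2 does, and Tm7sf2 changed by -0.67 and -0.66.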

How the data were processed

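RNA of 24 macrophage cultures was hybridised to Affymetrix mouse genome arrays, 1 array each. The authors made the deposited values, linear ratios, by GC-RMA in GeneSpring, dividing each array by its 50th percentile and each probe set by its median over arrays. GCOS and GCRMA are the tools in the submitters' processing notes, with no version. Ratios keep no absolute level, and the number of arrays limits precision.

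The log2 ratios of 45037 probe sets, 64 control probe sets left out, were fitted with limma 3.58.1 in R 4.3.3 (8 group means, trended eBayes). Calls were two-sided, at a change of 1.5-fold or more with p, adjusted by Benjamini and Hochberg's method, below 0.05. One symbol was given for 34945 probe sets, several for 932 and none for 9160. A gene was represented by the suffix _at or _a_at, then _s_at, then others, lowest number first. Values on every array were given, per branch, for up to 6 members called with IL-4 in WT or between KO and WT with IL-4, both with vehicle, by lowest adjusted p, and of other lists up to 3 called genes by size of change were named. Scd1 was added after its values were seen. Members and lists were chosen with earlier results of these data known.

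The labels give the mouse of each culture, 4 per mouse, so cultures are paired by animal. Deviations of arrays of the same mouse correlated at a mean of 0.0106 over all probe sets, with 0 of 36 pairs over 0.1, and of 0.0121 over member probe sets (-0.41 to 0.58), with 13 over 0.1. The fit was tested on simulated data. Alternatives were other scalings, probe set rules, a mouse block, the compared groups alone, the methods' t-test and left-out arrays.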

Additional observations from a re-analysis of the deposited data

Results flagged for a closer look

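For 6 members the IL-4 change with vehicle differed between WT and KO by limma's test of the difference. WT minus KO, on the log2 scale, was 1.03 for Hmgcs1 (adjusted p = 0.0183), 2.34 for Dhcr7 (9.14e-05), 0.77 for Nsdhl (0.0418), 0.90 for Srebf1 (0.000318), 3.13 for Me1 (0.00884) and 2.05 for Scd2 (0.02). Nsdhl and Hmgcs1 were not called under quantile normalization, nor Nsdhl with centred arrays. For Me1 the KO change was the larger in size, and for Scd2 the WT change was. The second Me1 probe set, at 0.82, and the third Scd2 probe set, at 0.28, were not called.

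In 5 members with IL-4 and RSG, and in 5 members for an RSG change, every WT mouse moved one way and every KO mouse the other, and these differences were not tested. The share of all genes that did so was not counted, so these counts cannot be told from the background. For the IL-4 change with RSG, WT minus KO was 1.05 for Hmgcs1, 0.91 for Sqle, 2.70 for Dhcr7, 1.06 for Nsdhl and 0.97 for Srebf1. For the RSG change without IL-4 it was 2.84 for Fdft1, on a probe set that 1 of 3 others followed in sign in both genotypes. For the RSG change with IL-4 it was -0.49 for Sqle, 0.54 for Acly, 2.72 for Scd1 and -0.37 for Fads2. The opposite direction in KO was not seen on the other probe set of Scd1 (0.71 in KO and 1.15 in WT), on 4 of 5 others of Acly or on 1 of 2 others of Fads2.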

How the results depend on the processing

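Of 66 called member values, recomputed 1248 times under the alternatives, 1028 kept direction and call, 216 lost the call and 4 reversed. Reversed were Fdps with IL-4 in WT (1.27 on the probe set with the largest SD, 0.029 as the mean of its probe sets), and, on the probe set with the largest SD, Acly in KO against WT with IL-4 and vehicle (0.22) and Fads2 with RSG (-0.40). With IL-4 in WT and vehicle, 14 members were called, 5 with the compared groups alone, 1 by the methods' t-test, and 7 without the control array of mouse 1, an alternative chosen after seeing the data. With IL-4 in KO and RSG, 5 became 3 under quantile normalization or centring, 0 with the compared groups alone or the t-test, 2 without the 2 arrays high in stromal markers and 3 without the RSG control array of mouse 6, also chosen after seeing the data. Those 2 were Scd2 and Elovl6, called higher and not among the 5. Those 3 were Me1, which was among the 5, and again Scd2 and Elovl6, called higher. RSG in WT with IL-4 went from 0 to 2 without the 2 arrays high in stromal markers, and also without the RSG control array of mouse 6. KO against WT with IL-4 and RSG went from 12 to 7 under quantile normalization. Leaving out each mouse gave 6 to 15 for IL-4 in WT with vehicle, 0 to 4 for IL-4 in KO with RSG, 0 to 2 for RSG in WT with IL-4 and 3 to 5 for the genotype difference, which was 6 in all and up to 8 without single arrays. Under centring the medians became -0.45 (sterol, IL-4 in KO with vehicle), 0.19 and 0.36 (sterol and fatty acid, KO against WT with IL-4 and vehicle), -0.055 (sterol, the same with RSG) and -0.51 (fatty acid, genotype difference). Under quantile normalization they became 0.34 (fatty acid, IL-4 in KO with vehicle), -0.067 and -0.56 (sterol and fatty acid, KO against WT with IL-4 and RSG) and -0.55 (fatty acid, genotype difference). The cause was not tested. With the mouse as a replicate block, cultures being paired by animal, IL-4 in KO with vehicle called 10 members, with Scd1 added at an adjusted p of 0.0447. The t-test was not run on the 2 differences of responses. With 3 mice a group and ratios alone, small changes and levels between genes could not be seen.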
